A study of Rattus norvegicus with 18 samples.

Results

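The genes described here are 32 rat genes whose products copy DNA, chosen by name as textbook parts of the replication machinery and of the supply of its building blocks. Of the 32, 31 passed the filter on low values (above log2 4 in at least 3 arrays) and were among the 9149 genes tested. The 2 symbols Rrm2 and Rrm2l1 share their probe sets on the array, so Rrm2 was left out and has no value below. The study exposed confluent cultures of NRK-52E, an established line from rat kidney of the Osborne-Mendel strain labelled as proximal tubule epithelium, to chlorothalonil, an organochlorine fungicide. The treated groups received 1.1 µM chlorothalonil in DMSO, named in the labels as the IC10 at 72 h, and the control groups received DMSO alone. RNA was taken after 6, 24 and 72 h and read on 18 Affymetrix arrays, 3 per treatment and time. All cultures shared the cell line, the serum-containing medium and confluence at the start, and replicates are titled as biological ones, without a statement of whether they came from separate passages, so p-values measure the spread between these arrays.

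To copy a chromosome, a cell first loads the ring-shaped MCM complex onto DNA at origins and then turns it into an active helicase with Cdc45 and the GINS complex. Primase and DNA polymerase alpha start each new strand, the sliding clamp PCNA is placed by replication factor C, and polymerases delta and epsilon extend the strands, while RPA covers the single-stranded template. The short fragments of the lagging strand are trimmed and joined, and enzymes such as ribonucleotide reductase and thymidylate synthase supply the deoxynucleotides. Most of these genes are transcribed in late G1 and S phase under E2F transcription factors, and kidney tubule cells that are not dividing keep them low.

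Levels are the deposited log2 values, changes are differences of log2 group means in chlorothalonil minus DMSO, and a gene is called higher or lower where limma's p, adjusted by Benjamini-Hochberg over the 9149 genes, was under 0.05. Replicate arrays of a group were correlated over these genes at 0.992 to 0.998. The spiked poly-A control transcripts were brighter in treated than in DMSO arrays by 0.62 at 6 h, 1.07 at 24 h and 0.67 at 72 h. Their group values did not overlap at any time, and DMSO array 1 at 24 h stood apart at 8.97. Scaling every array to these controls lowers every treatment change by those amounts, so that the median change of all genes goes from −0.0097, 0.057 and 0.074 to −0.62, −1.02 and −0.60 at 6, 24 and 72 h. The distance of the replication genes from that median is the same on both scales, namely −0.096 at 6 h, 0.40 at 24 h and 0.63 at 72 h.

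The labelled cell type was checked against lists of markers. Of 12 proximal tubule markers on the array, 2 passed the filter on low values (Aqp1 and Ggt1) and 10 never exceeded log2 4. Of 9 epithelial markers, 4 passed (Krt8, Krt7, Tjp1 and Ocln) and 5 never exceeded log2 4, namely Krt18, Krt19, Epcam, Cdh1 and Cldn4. Of the other cell types, 2 of 7 fibroblast markers (Col1a1 and Col1a2), 1 of 4 endothelial (Tek), 1 of 5 leukocyte (Cd68), 1 of 3 podocyte (Synpo) and 0 of 4 distal nephron markers passed. Every marker that passed was called different between treated and DMSO arrays at 1 or more times. A marker high in only 1 group can pass the filter, so such a call follows in part from how it passed. Aqp1 exceeded log2 4 only in DMSO arrays at 72 h, and Krt7 only in treated arrays and 1 DMSO array at 6 h. In DMSO and treated arrays at 72 h the group means were 7.04 and 2.60 for Aqp1, 3.42 and 5.64 for Ggt1, 10.02 and 8.23 for Col1a2, 7.39 and 6.11 for Col1a1, and 5.51 and 3.84 for Tek. Krt7 stood at 3.73 and 6.47 at 6 h, and Ocln at 6.02 and 7.34, Krt8 at 13.54 and 14.35 and Tjp1 at 13.36 and 13.10 at 24 h. Synpo stood at 9.23 and 8.79 at 72 h. Cd68 stood at 2.43 and 3.83 at 6 h, 2.59 and 5.03 at 24 h, and 3.91 and 9.45 at 72 h. Of the other leukocyte markers, Ptprc, Csf1r and Itgam never exceeded 3.06 in any array, and a probe set of Cd3e reached 4.09 in 1 DMSO array at 24 h. The part of these differences in the results below was not tested.

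Most replication genes were high in both groups at 6 h and lower by 24 h, with median changes of −1.37 in DMSO and −0.79 in chlorothalonil. On the deposited scale most were higher in treated cells at 24 and 72 h. The smaller fall was not shared by all: Pole, Tyms, Cdt1 and Dut were called lower at 24 h and higher only at 72 h. Pola1 was also called lower at 24 h and was not called at 72 h. Except for Pole, these 24 h calls were lost under some of the settings given below. Tk1 fell more in treated cells than in DMSO from 6 to 24 h, with a difference of −0.75. Scaled to the poly-A controls with all arrays in the fit, none was called higher at any time. Without DMSO array 1 of 24 h, 1 gene was called higher at 24 h on that scale. At 6 h, 2 of the 31 genes were called higher in treated cells and 3 lower, in a comparison that called 59.6% of all genes, 27.8% higher and 31.8% lower. Both of those shares lie far above the share of replication genes called at 6 h. At 24 h, 18 were higher and 5 lower, and the comparison called 70.1% of all genes, 39.1% higher and 31.1% lower. At 72 h, 27 were higher and 1 lower, where 64.3% of all genes were called, 37.2% higher and 27.0% lower. These shares also stand beside the counts by role and list at the same times below. The median change of the 31 genes was −0.11, 0.46 and 0.70 at the 3 times. Called genes thus made up a smaller share of the replication genes than of all genes at 6 h, a similar share at 24 h and a larger share at 72 h, and at the later times the higher calls outnumbered the lower ones. Scaled to the poly-A controls, the calls read 13 lower at 6 h, 14 lower at 24 h and 2 lower at 72 h, with none higher, and 18 of 31 changes lay above 0 at 72 h against 2 of 31 at 24 h. Counted by arrays alone, 5 of 31 genes had all treated arrays above all DMSO arrays at 6 h and 10 had all below (66.7% of all genes did not overlap, 32.1% above and 34.7% below). The counts were 18 and 3 at 24 h (73.0%, with 40.4% above and 32.5% below) and 28 and 1 at 72 h (70.5%, with 40.1% above and 30.5% below). At 6 h the split of 2 higher and 3 lower became 2 and 8 under quantile normalization and 2 and 6 when each array was centred on its median. Besides the genes given in every array below, Mcm5, Prim2 and Rfc5 were also called lower at 6 h in 1 or 2 of the fits that left out an array, of which only that of Prim2 without DMSO array 1 of 6 h altered the change itself (−0.25). In such bulk samples, fewer cells expressing a gene and less of its RNA per cell cannot be told apart.

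**Figure D1:**
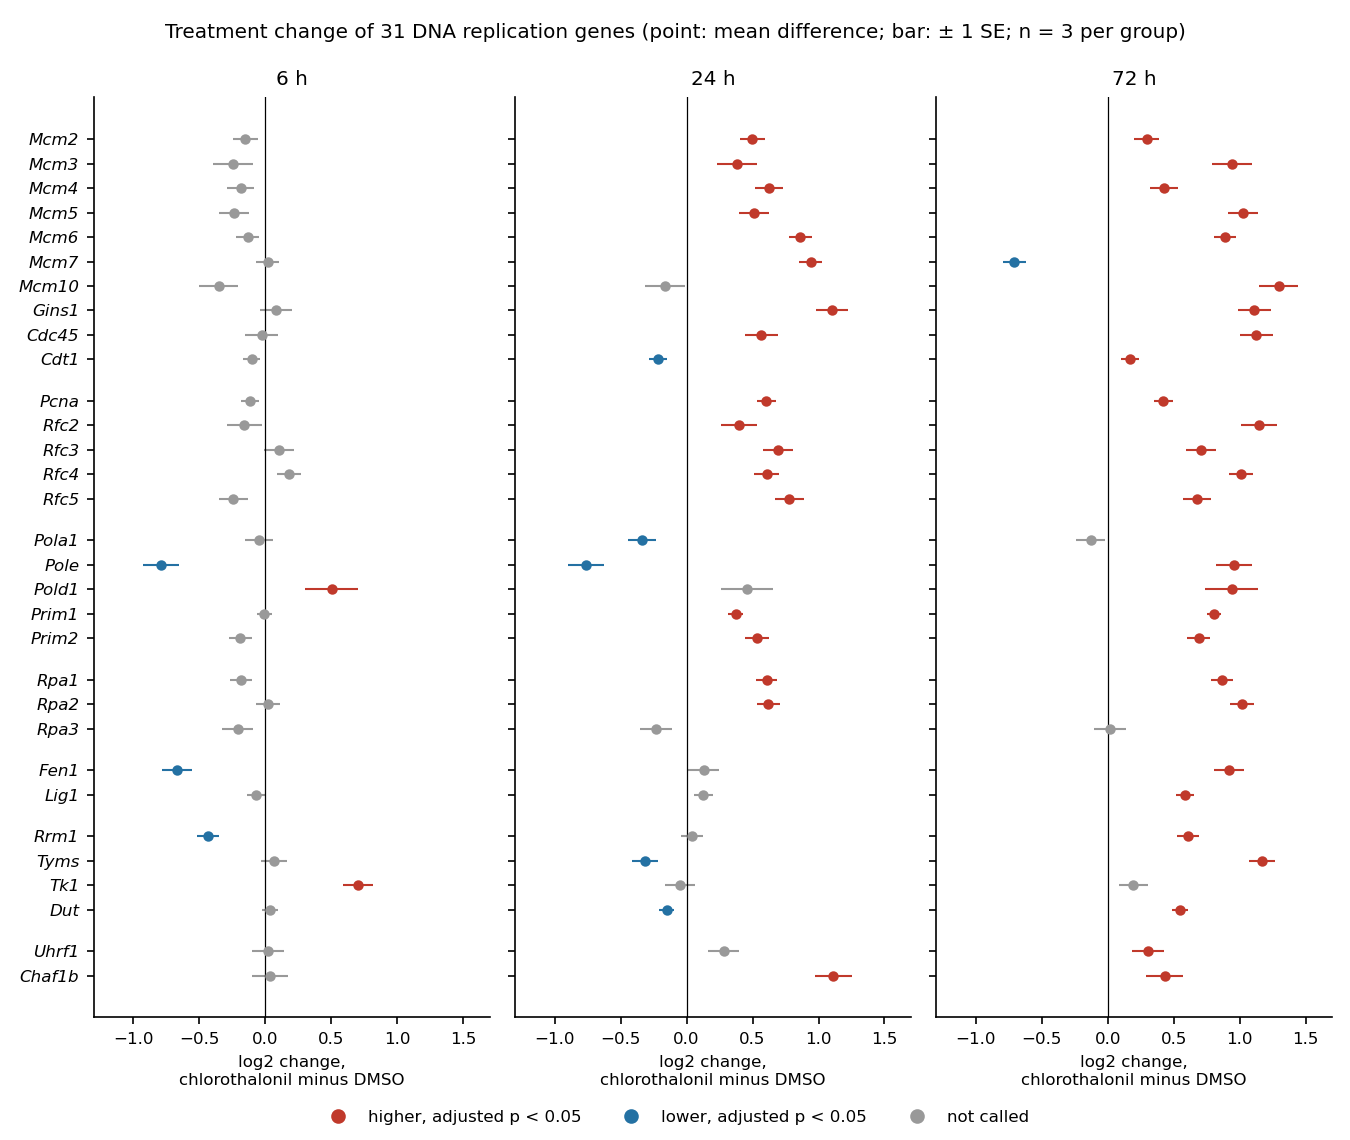
Log2 change, chlorothalonil minus DMSO, of each of the 31 replication genes at 6, 24 and 72 h on the deposited scale, with bars of 1 SE (n = 3 arrays per group) and genes grouped by role. Most points lie near 0 at 6 h and to the right of 0 at 72 h, where Mcm7 stands apart at −0.71. Scaling to the poly-A controls would move all points left by 0.62, 1.07 and 0.67.

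Promoter sequence was examined because most of these genes are known to be transcribed under E2F, as said above. A high share of E2F-type words was thus foreseen. The windows compared were not matched for base composition. RefSeq promoter windows of assembly GRCr8, from 250 bases before to 50 bases after each annotated start, were found for 29 of the 32 genes, as 32 windows; Mcm4, Rpa3 and Rrm2 were not matched. The E2F-type words searched on both strands were TTTCCCGC, TTTGGCGC and TTCGCGC. At least 1 of them occurs in 15 of the 32 windows (46.9%), against 2.88% of all 33469 windows of that length. The 15 genes are Cdt1, Fen1, Gins1, Lig1, Mcm10, Mcm2, Mcm3, Mcm5, Mcm6, Mcm7, Pola1, Pole, Rfc3, Tyms and Uhrf1. CCAAT, the word bound by NF-Y, occurs in 59.4% of the replication windows against 37.5% of all windows. The words TTTGAA and TTCGAA, of the type called CHR that is known from late cell cycle genes, occur in 15.6% against 19.7%. A match is a description of letters in the window and not evidence of binding. The 250 bases before the start are printed for the 4 genes that hold an E2F-type word and had the largest called changes. Capitals mark the E2F-type words on either strand, including where they overlap, and each sequence is given 5′ to 3′ on the strand of its gene.
Mcm10, chr17:78175137-78175386, plus strand: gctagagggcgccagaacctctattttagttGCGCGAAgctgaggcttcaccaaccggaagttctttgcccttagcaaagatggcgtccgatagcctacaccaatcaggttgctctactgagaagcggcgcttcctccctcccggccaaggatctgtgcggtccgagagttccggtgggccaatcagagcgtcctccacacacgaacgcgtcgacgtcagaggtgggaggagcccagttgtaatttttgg
Tyms, chr9:120776084-120776333, minus strand: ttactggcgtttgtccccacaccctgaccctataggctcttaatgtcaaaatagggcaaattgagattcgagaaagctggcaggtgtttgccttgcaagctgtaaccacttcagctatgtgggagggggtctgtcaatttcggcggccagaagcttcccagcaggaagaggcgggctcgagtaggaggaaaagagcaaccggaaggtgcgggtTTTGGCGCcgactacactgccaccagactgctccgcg
Gins1, chr3:160184670-160184919, plus strand: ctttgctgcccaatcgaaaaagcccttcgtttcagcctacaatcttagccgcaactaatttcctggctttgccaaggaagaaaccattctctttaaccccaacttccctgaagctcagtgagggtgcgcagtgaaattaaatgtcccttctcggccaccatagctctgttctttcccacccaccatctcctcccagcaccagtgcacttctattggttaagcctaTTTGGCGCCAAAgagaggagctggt
Mcm5, chr19:13488563-13488812, plus strand: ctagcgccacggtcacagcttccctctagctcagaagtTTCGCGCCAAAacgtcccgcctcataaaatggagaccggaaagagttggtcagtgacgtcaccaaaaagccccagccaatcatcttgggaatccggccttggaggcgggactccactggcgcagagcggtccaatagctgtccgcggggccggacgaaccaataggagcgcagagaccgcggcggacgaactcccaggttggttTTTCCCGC
In Gins1 the word TTTGGCGC runs on both strands over the same stretch, with the first bases 25 and 21 bases before the start. In Tyms the same word begins 37 bases before the start. Mcm5 holds all 3 words, TTTCCCGC directly before the start and the other two overlapping each other further upstream. The 15 genes with such a word had a median change of −0.11, 0.28 and 0.89 at 6, 24 and 72 h, and the 14 without one had −0.02, 0.55 and 0.75. At 24 h, 7 of the 15 were higher and 4 lower, against 10 higher and 1 lower of the 14. The 24 h counts of the 15 lie near the shares of all genes, 39.1% higher and 31.1% lower. At 72 h, 13 were higher in each set, where 37.2% of all genes were higher. The difference between the sets was not tested.

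Among the helicase genes and their loaders, none of 10 was called at 6 h by limma (1 at an unadjusted p under 0.05, Mcm10), 8 were higher and 1 lower at 24 h, and 9 were higher and 1 lower at 72 h. The median changes were −0.14, 0.54 and 0.92, and 1 of 10 stayed above 0 at 24 h and 6 of 10 at 72 h when scaled to the poly-A controls. Mcm2 to Mcm7 are the 6 subunits of the ring, and at 24 h all 6 were higher, by 0.38 (Mcm3) to 0.94 (Mcm7). Gins1, a subunit of the GINS complex, was higher by 1.10 (SE 0.12, adjusted p = 1.03e-06) at 24 h and by 1.11 (SE 0.12, adjusted p = 1.46e-06) at 72 h. The Mcm3 call at 24 h was lost without treated array 1 (0.25), treated array 2 (0.39) or DMSO array 1 (0.40) or 3 (0.22). The Mcm2 change at 72 h, 0.30, was not called without treated array 3 (0.26).

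Mcm10 links the loaded ring to the polymerases. In DMSO Mcm10 read log2 7.08, 7.42 and 7.28 at 6 h, 5.76, 5.92 and 5.98 at 24 h and 5.54, 5.67 and 5.62 at 72 h. In chlorothalonil it read 6.90, 6.77 and 7.04 at 6 h, 5.85, 5.41 and 5.92 at 24 h and 6.60, 6.93 and 7.20 at 72 h. The treated arrays lay below the DMSO arrays at 6 h, among them at 24 h and far above them at 72 h, back near the 6 h level. The change at 72 h was 1.29 (SE 0.15, adjusted p = 2.51e-06), a 2.45-fold difference and the largest among the 31 genes. At 6 h it was −0.36 and at 24 h −0.16, neither called. The 6 h change became a call without DMSO array 1 of that time (−0.45, adjusted p = 0.0323) or treated array 3 (−0.42, adjusted p = 0.0472), and in 4 fits without a treated array of another time, each with an unaltered change. A second Mcm10 probe set gave 0.32, 0.92 and 2.12 at the 3 times, so the direction at 6 and 24 h differs between probe sets and that at 72 h does not.

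Cdc45 is the helicase cofactor that joins the ring when an origin fires. Its DMSO arrays were at 10.01, 10.15 and 10.02 at 6 h, 8.21, 8.55 and 8.14 at 24 h and 8.24, 8.27 and 8.31 at 72 h. The treated arrays were at 10.31, 9.90 and 9.90 at 6 h, 9.07, 8.67 and 8.86 at 24 h and 9.35, 9.39 and 9.47 at 72 h. The arrays overlapped at 6 h and stood apart later, with every treated array above every DMSO array. The change was 0.57 (SE 0.13, adjusted p = 0.000855) at 24 h and 1.13 (SE 0.13, adjusted p = 1.64e-06) at 72 h. Its representing probe set may cross-hybridise with similar sequences, and a second set gave 0.94 and 1.57 at those times and 0.07 against −0.03 at 6 h, while another gave 0.61 and 1.42. The remaining set did not pass the filter on low values and gave −0.01, −0.03 and 0.01 at 6, 24 and 72 h.

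Mcm7, a ring subunit, was the exception at 72 h. In DMSO its values were 12.39, 12.33 and 12.31 at 6 h, 10.41, 10.66 and 10.37 at 24 h and 10.60, 10.61 and 10.70 at 72 h. Under chlorothalonil they were 12.41, 12.37 and 12.30 at 6 h, 11.57, 11.23 and 11.46 at 24 h and 9.86, 9.95 and 9.98 at 72 h. Arrays of both groups mixed at 6 h, all treated arrays were higher at 24 h, and all treated arrays were lower at 72 h. The change went from 0.94 (SE 0.087, adjusted p = 1.42e-07) at 24 h to −0.71 (SE 0.087, adjusted p = 4.59e-06) at 72 h, a difference between times of −1.65 (SE 0.12, adjusted p = 4.94e-08). The other 5 ring subunits were higher at 72 h, by 0.30 (Mcm2) to 1.03 (Mcm5). Mcm7 was read from 1 probe set.

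Cdt1 loads the ring onto origins and is held in check after loading. It varied little: the DMSO arrays gave 10.84, 10.94 and 10.65 at 6 h, 10.79, 10.79 and 10.77 at 24 h and 10.56, 10.55 and 10.64 at 72 h. The treated arrays gave 10.75, 10.64 and 10.72 at 6 h, 10.58, 10.53 and 10.60 at 24 h and 10.72, 10.77 and 10.76 at 72 h. At 24 h the treated arrays were all lower and at 72 h all higher. The changes were −0.22 (adjusted p = 0.00871) at 24 h and 0.17 (adjusted p = 0.0356) at 72 h. The 72 h call was lost without DMSO array 1 or 2 or treated array 2 or 3 of that time, with changes of 0.15 to 0.16, and the 24 h call was lost when arrays were centred on their median. The 6 h change of −0.11 became a call without DMSO array 3 of that time (−0.19).

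**Figure D2:**
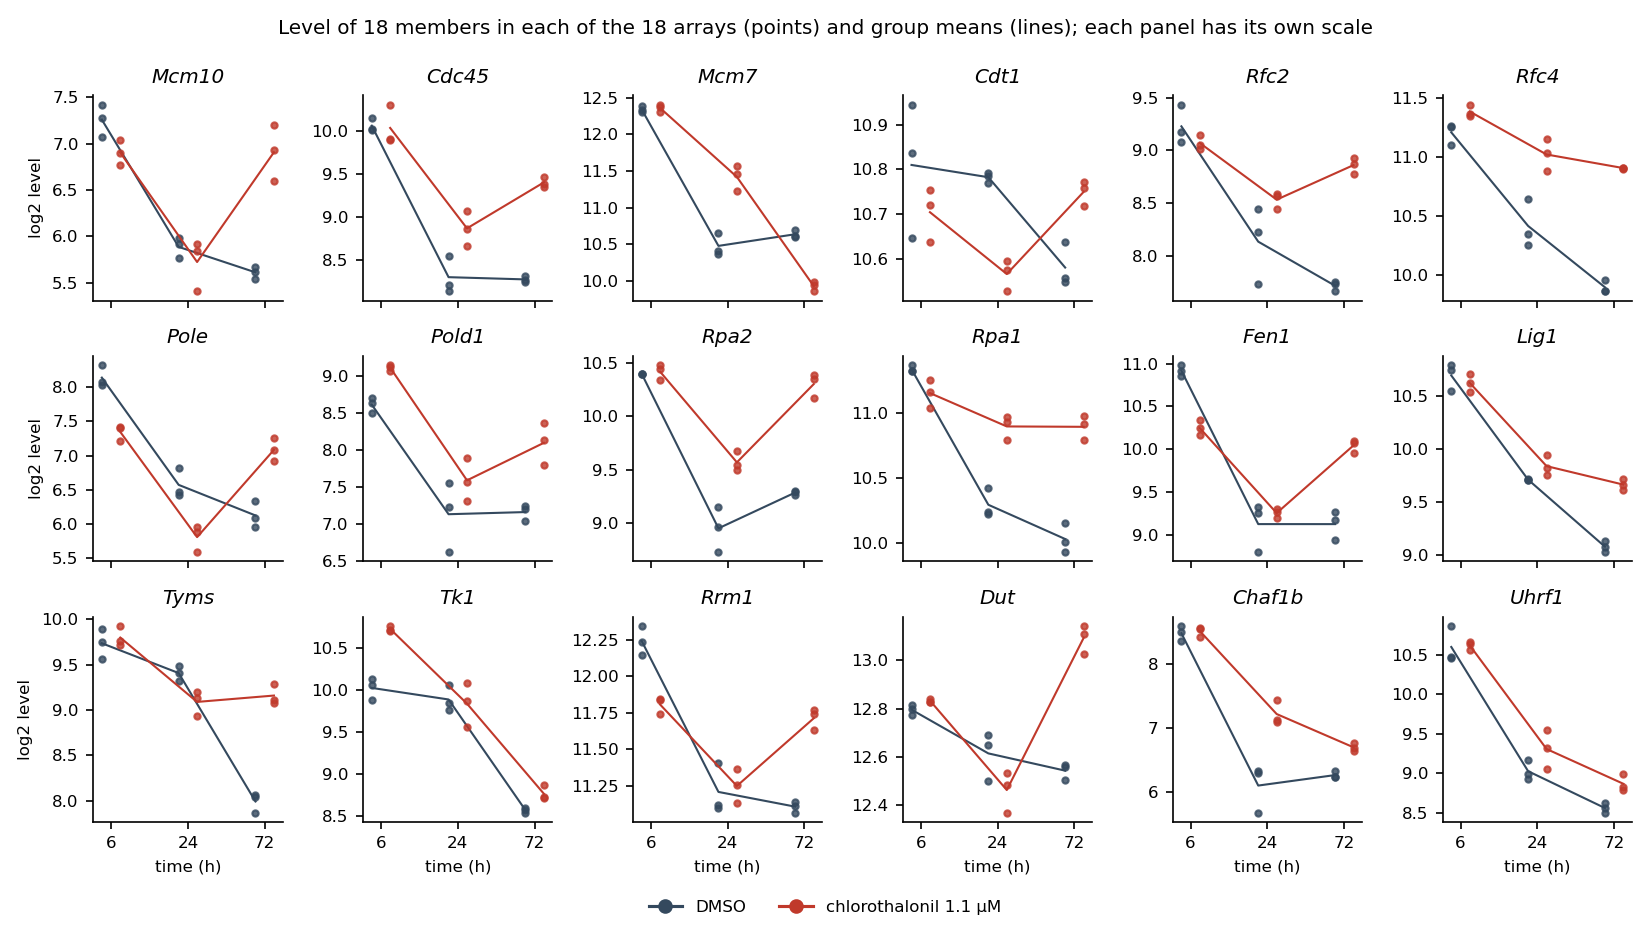
Deposited log2 level of 18 replication genes in each of the 18 arrays (points) with group means joined by lines, DMSO in dark blue and chlorothalonil in red, at 6, 24 and 72 h, each panel on its own scale. Most panels show a drop from 6 to 24 h in both groups and red points above the dark ones at 72 h, with Mcm7 as the exception. On the poly-A scale 18 of all 31 changes lay above 0 at 72 h and none was called higher.

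For the sliding clamp and its loader, none of 5 genes was called at 6 h by limma (1 at an unadjusted p under 0.05), and all 5 were higher at 24 h and at 72 h on the deposited scale. Scaled to the poly-A controls, none of the 5 stayed above 0 at 24 h and 4 did at 72 h. Pcna, the clamp itself, was higher by 0.61 (SE 0.070, adjusted p = 1.54e-06) at 24 h and by 0.42 (SE 0.070, adjusted p = 8.32e-05) at 72 h. Rfc3 and Rfc5, small subunits of the loader, were higher by 0.69 and 0.78 at 24 h and by 0.70 and 0.68 at 72 h.

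Rfc2 is another small subunit of the loader. Rfc2 in DMSO stood at 9.17, 9.08 and 9.44 at 6 h, 8.23, 8.44 and 7.73 at 24 h and 7.73, 7.75 and 7.66 at 72 h. In treated cultures Rfc2 stood at 9.15, 9.05 and 9.01 at 6 h, 8.57, 8.44 and 8.58 at 24 h and 8.87, 8.78 and 8.93 at 72 h. Treated and DMSO arrays overlapped at 6 h, nearly touched at 24 h, where DMSO array 2 equalled the lowest treated array to 2 decimals, and were far apart at 72 h. The 72 h change was 1.15 (SE 0.14, adjusted p = 3.21e-06). The 24 h change of 0.40 (adjusted p = 0.0163) rested on DMSO array 3 and fell to 0.20, not called, without it.

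Rfc4 completes the small subunits measured. Its log2 levels were 11.26, 11.27 and 11.11 at 6 h, 10.35, 10.65 and 10.25 at 24 h and 9.96, 9.87 and 9.86 at 72 h in DMSO. They were 11.35, 11.36 and 11.45 at 6 h, 11.15, 10.88 and 11.04 at 24 h and 10.91, 10.91 and 10.90 at 72 h in chlorothalonil. All treated arrays lay above all DMSO arrays at each time, by least at 6 h, where the change of 0.18 was not called (adjusted p = 0.109) except in the fit without DMSO array 2 of 24 h (adjusted p = 0.0440). At 72 h the treated arrays were nearly identical and the change was 1.01 (SE 0.091, adjusted p = 1.9e-07), a 2.01-fold difference.

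Of 5 genes for polymerases and primase, 1 was higher and 1 lower at 6 h, and 2 were higher and 2 lower at 24 h. The 24 h counts lie near the shares of all genes, 39.1% higher and 31.1% lower. At 72 h 4 were higher and 1 was not called. When scaled to the poly-A controls none of the 5 stayed above 0 at 24 h and 4 did at 72 h. Prim1 and Prim2, the 2 subunits of primase, were higher by 0.37 and 0.53 at 24 h and by 0.80 and 0.69 at 72 h. Pola1, the catalytic subunit of polymerase alpha that works with primase, was lower at 24 h by −0.34 (SE 0.11, adjusted p = 0.0113) and differed by −0.13 (95% interval −0.36 to 0.10) at 72 h. That 24 h call was lost without treated array 1 (−0.25) or DMSO array 2 (−0.24).

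Pole, the catalytic subunit of the leading-strand polymerase epsilon, turned direction between times. The DMSO arrays of Pole were 8.32, 8.07 and 8.03 at 6 h, 6.47, 6.82 and 6.43 at 24 h and 5.96, 6.33 and 6.09 at 72 h. The treated arrays of Pole were 7.22, 7.40 and 7.42 at 6 h, 5.60, 5.95 and 5.88 at 24 h and 6.93, 7.08 and 7.25 at 72 h. Treated arrays all lay below DMSO at 6 and 24 h and all above at 72 h. The changes were −0.79 (SE 0.13, adjusted p = 0.000125), −0.76 (SE 0.13, adjusted p = 0.000121) and 0.96 (SE 0.13, adjusted p = 1.76e-05). Between 24 and 72 h the treatment effect moved by 1.72 (SE 0.19, adjusted p = 2.47e-06), the largest such rise among the 31 genes.

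Pold1 is the catalytic subunit of polymerase delta, which extends the lagging strand. For Pold1 the DMSO readings were 8.64, 8.50 and 8.71 at 6 h, 7.22, 7.55 and 6.62 at 24 h and 7.20, 7.04 and 7.24 at 72 h. The corresponding treated readings were 9.13, 9.15 and 9.07 at 6 h, 7.90, 7.30 and 7.57 at 24 h and 7.80, 8.37 and 8.13 at 72 h. The groups stood apart at 6 and 72 h and overlapped at 24 h. At 72 h the change was 0.94 (SE 0.20, adjusted p = 0.000723). At 6 h it was 0.50 (adjusted p = 0.0403), a call lost without any 1 of the 6 arrays of that time (0.44 to 0.55), and at 24 h it was 0.46 (adjusted p = 0.0501), which became a call without treated array 2 (0.60) or DMSO array 2 (0.67) of that time.

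RPA, the trimer that coats single-stranded DNA, was split between its subunits. None of its 3 genes was called at 6 h by limma (1 at an unadjusted p under 0.05), and Rpa1 and Rpa2 were higher at 24 and 72 h, although scaled to the poly-A controls both were below 0 at 24 h and above 0 at 72 h. Rpa3, the smallest subunit, was called at none of the 3 times, with changes of −0.21, −0.23 and 0.02 (95% interval at 72 h −0.24 to 0.28). Its 6 h change became a call without DMSO array 1 of that time (−0.31), and its 24 h change without treated array 3 of that time (−0.33) or DMSO array 2 of 6 h.

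Rpa1, the large subunit that holds most of the DNA contacts, read 11.37, 11.33 and 11.33 at 6 h, 10.24, 10.42 and 10.22 at 24 h and 10.00, 10.15 and 9.93 at 72 h in DMSO. It read 11.17, 11.04 and 11.26 at 6 h, 10.97, 10.79 and 10.94 at 24 h and 10.98, 10.92 and 10.79 at 72 h in chlorothalonil. Treated arrays were below DMSO at 6 h and above it at 24 and 72 h, without overlap. Between 24 and 72 h the treated level of Rpa1 moved by −0.0030 (95% interval −0.18 to 0.17, adjusted p = 0.975), while DMSO fell by 0.26. The 6 h change of −0.18 was not called, except without treated array 3 of that time (−0.24). The changes at 24 and 72 h were 0.61 and 0.87 (SE 0.081, adjusted p = 7.96e-06 and 2.72e-07).

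For Rpa2, the middle subunit that is phosphorylated in S phase, the DMSO series was 10.40, 10.40 and 10.40 at 6 h, 8.96, 9.15 and 8.73 at 24 h and 9.26, 9.29 and 9.30 at 72 h. The treated series was 10.48, 10.34 and 10.44 at 6 h, 9.67, 9.54 and 9.50 at 24 h and 10.17, 10.35 and 10.39 at 72 h. The groups overlapped at 6 h and separated afterwards, and at 72 h the treated arrays were again near their 6 h level. The change was 0.62 (SE 0.090, adjusted p = 1.83e-05) at 24 h and 1.02 (SE 0.090, adjusted p = 1.53e-07) at 72 h.

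Of the 2 genes for joining lagging-strand fragments, 1 was lower at 6 h (Fen1), both were higher at 72 h (1 of the 2 above 0 when scaled to the poly-A controls), and neither was called at 24 h by limma or at an unadjusted p under 0.05. Fen1, the flap endonuclease that trims the fragments, stood in DMSO at 10.98, 10.86 and 10.91 at 6 h, 9.25, 9.32 and 8.80 at 24 h and 8.93, 9.17 and 9.27 at 72 h. In treated arrays Fen1 was at 10.34, 10.24 and 10.16 at 6 h, 9.20, 9.26 and 9.30 at 24 h and 10.07, 10.10 and 9.96 at 72 h. Treated arrays were lower at 6 h, overlapped with DMSO at 24 h and were higher at 72 h. The 6 h change was −0.67 (SE 0.12, adjusted p = 0.000138) and the 72 h change 0.92 (SE 0.12, adjusted p = 5.64e-06).

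Lig1, the ligase that seals the nicks, gave DMSO values of 10.79, 10.55 and 10.75 at 6 h, 9.71, 9.71 and 9.72 at 24 h and 9.14, 9.07 and 9.03 at 72 h. Its treated values were 10.54, 10.63 and 10.71 at 6 h, 9.94, 9.83 and 9.75 at 24 h and 9.67, 9.62 and 9.72 at 72 h. The groups overlapped at 6 h, the treated arrays were slightly above DMSO at 24 h, and they were clearly above at 72 h. Lig1 changed by 0.59 (SE 0.071, adjusted p = 4.17e-06) at 72 h, from a probe set that may cross-hybridise with similar sequences, and a second set gave 0.63.

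Of 4 nucleotide supply genes, 2 were lower at 24 h (Tyms and Dut) and none was higher by limma or at an unadjusted p under 0.05, and both of these calls were lost in fits that left out 1 array. At 72 h, 3 of 4 were higher, and 1 of 4 stayed above 0 when scaled to the poly-A controls. Tyms makes thymidylate. In DMSO, Tyms stood at 9.89, 9.56 and 9.75 at 6 h, 9.41, 9.48 and 9.32 at 24 h and 8.04, 8.06 and 7.87 at 72 h. With chlorothalonil, Tyms stood at 9.76, 9.71 and 9.92 at 6 h, 9.20, 9.13 and 8.93 at 24 h and 9.29, 9.08 and 9.11 at 72 h. The groups overlapped at 6 h, treated arrays were lower at 24 h, and DMSO then dropped while treated arrays held, so that all treated arrays were higher at 72 h. The change was −0.32 (SE 0.099, adjusted p = 0.00972) at 24 h and 1.17 (SE 0.099, adjusted p = 9.72e-08) at 72 h. The 24 h call was lost without treated array 3 (−0.24).

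Tk1, thymidine kinase 1, salvages thymidine. Tk1 levels in DMSO were 10.13, 9.88 and 10.07 at 6 h, 9.85, 10.06 and 9.76 at 24 h and 8.60, 8.58 and 8.54 at 72 h. In treated cells they were 10.76, 10.71 and 10.71 at 6 h, 10.09, 9.56 and 9.87 at 24 h and 8.72, 8.87 and 8.71 at 72 h. Treated arrays were above DMSO at 6 h, overlapped at 24 h and were narrowly above at 72 h, in a gene that fell over time in both groups. The 6 h change was 0.70 (SE 0.11, adjusted p = 6.83e-05), the largest rise of the 31 genes at that time, and the 72 h change of 0.19 was not called (adjusted p = 0.140). Of the other probe sets of Tk1, both were above 0 at 24 h (0.13 and 0.20 against −0.05), and at 72 h one gave −0.30 and the other 0.40.

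Rrm1 is the large subunit of ribonucleotide reductase. The DMSO level of Rrm1 was 12.24, 12.15 and 12.35 at 6 h, 11.10, 11.40 and 11.12 at 24 h and 11.06, 11.11 and 11.14 at 72 h. The treated level was 11.74, 11.84 and 11.85 at 6 h, 11.25, 11.13 and 11.36 at 24 h and 11.74, 11.77 and 11.63 at 72 h. As with Fen1, treated arrays were lower at 6 h, overlapped at 24 h and were higher at 72 h. The changes were −0.44 (SE 0.085, adjusted p = 0.000415), 0.04 and 0.61 (SE 0.085, adjusted p = 1.72e-05).

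Dut is the dUTPase that keeps uracil out of DNA. DMSO arrays of Dut gave 12.80, 12.77 and 12.82 at 6 h, 12.65, 12.69 and 12.50 at 24 h and 12.57, 12.56 and 12.51 at 72 h. Treated arrays of Dut gave 12.83, 12.83 and 12.84 at 6 h, 12.53, 12.37 and 12.49 at 24 h and 13.03, 13.14 and 13.11 at 72 h. At 24 h the groups overlapped, and at 72 h every treated array exceeded every other array of the study. The 72 h change was 0.55 (SE 0.060, adjusted p = 1.35e-06). The 24 h change of −0.15 (adjusted p = 0.0341) was not called without treated array 2 (−0.10) or DMSO array 1 (−0.13) or 2 (−0.11), nor when arrays were centred. A second Dut probe set went the other way at 6 and 72 h, with −1.20, −1.0 and −0.13 at the 3 times, so the direction for Dut depends on the probe set.

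Of the 2 genes that copy chromatin along with DNA, neither was called at 6 h by limma or at an unadjusted p under 0.05, 1 was higher at 24 h and both were higher at 72 h, where neither stayed above 0 when scaled to the poly-A controls. Chaf1b, a subunit of the CAF-1 complex that sets histones on new DNA, stood at 8.59, 8.35 and 8.49 at 6 h, 6.30, 6.33 and 5.69 at 24 h and 6.24, 6.24 and 6.33 at 72 h in DMSO. Chaf1b in treated arrays stood at 8.43, 8.55 and 8.55 at 6 h, 7.44, 7.13 and 7.09 at 24 h and 6.69, 6.77 and 6.65 at 72 h. The groups overlapped at 6 h and were apart afterwards, most widely at 24 h. The change was 1.11 (SE 0.14, adjusted p = 3.55e-06) at 24 h, the largest of the 31 genes at that time, and 0.43 (adjusted p = 0.0128) at 72 h, a decrease between the times of −0.68 (SE 0.20, adjusted p = 0.00766).

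Uhrf1 recognises hemimethylated DNA behind the fork and recruits the maintenance methyltransferase. It gave 10.46, 10.86 and 10.47 at 6 h, 8.92, 9.17 and 8.99 at 24 h and 8.51, 8.56 and 8.62 at 72 h in DMSO. It gave 10.66, 10.56 and 10.63 at 6 h, 9.32, 9.06 and 9.54 at 24 h and 8.83, 8.78 and 8.99 at 72 h in treated arrays. The groups overlapped at 6 and 24 h and did not at 72 h. Its 72 h change of 0.31 (adjusted p = 0.0375) was lost without treated array 1 (0.32) or 3 (0.25) or DMSO array 1 (0.28) or 2 (0.30), and its 24 h change of 0.28 was not called (adjusted p = 0.0502) but became a call without treated array 2 (0.40) or DMSO array 2 (0.35).

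The treatment effect on these genes differed between times. From 6 to 24 h it rose for 20 of 31 genes and fell for 2 (Tyms and Tk1), in a contrast that called 63.0% of all genes, 39.6% upward and 23.4% downward, and the median shift was 0.59 against 0.16 for all genes. Scaled to the poly-A controls, none of these 31 shifts was called by limma (1 at an unadjusted p under 0.05), and with DMSO array 1 at 24 h left out on that scale, 5 rose and 1 fell. From 24 to 72 h the effect rose for 15 and fell for 2 (Mcm7 and Chaf1b), where 57.6% of all genes were called, 27.9% upward and 29.8% downward. On the poly-A scale 3 were called as rising and 1 as falling. That scaling takes more off at 24 h (1.07) than at 72 h (0.67), so it moves every one of these shifts upward. It also brings the spread of the controls into every gene, and in DMSO at 24 h they ranged from 8.97 to 10.28. Fewer calls on that scale thus do not mean smaller rises from 24 to 72 h. The largest rises from 24 to 72 h were those of Pole (1.72), Tyms (1.48) and Mcm10 (1.46). The effects on Pole and Tyms turned from called lower to called higher, while that on Mcm10 was not called at 24 h. The comparisons at 24 h against 6 h and 72 h against 24 h share the arrays of 24 h.

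Each culture condition was also followed over time, to see which side of the treatment difference moved. In DMSO, 28 of 31 genes fell from 6 to 24 h, where 72.9% of all genes were called, 32.9% upward and 40.0% downward, and the median change was −1.37. The 3 not called were Cdt1 (−0.03), Rpa3 (−0.05) and Tk1 (−0.14). Under chlorothalonil, 29 of 31 fell over the same interval, where 59.5% of all genes were called, 34.6% upward and 24.9% downward, and the median was −0.79. Scaled to the poly-A controls, 24 fell in DMSO and 21 in chlorothalonil. Chaf1b fell most in DMSO, by 2.37, and by 1.29 in treated cells, Mcm7 fell by 1.86 against 0.94, Rfc5 by 1.81 against 0.79 and Gins1 by 1.78 against 0.76. The catalytic polymerase subunits fell in both: Pole by 1.56 in DMSO and 1.54 in chlorothalonil, Pold1 by 1.49 and 1.53, and Pola1 by 1.23 and 1.52, and none of these 3 differed between the conditions by the test of the interaction (adjusted p = 0.109 for Pola1).

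Between 24 and 72 h the median change in DMSO was −0.15, against −1.37 from 6 to 24 h, with 3 genes called higher and 13 lower. That contrast called 60.7% of all genes, 36.3% higher and 24.3% lower, and on the poly-A scale 2 replication genes were lower and none higher. The largest falls there were those of Tyms (by 1.41), Tk1 (by 1.31) and Lig1 (by 0.63). In chlorothalonil, 13 rose and 9 fell (median 0.07), where 72.9% of all genes were called, 39.5% higher and 33.3% lower, and on the poly-A scale 5 rose and 2 fell. Pole rose by 1.27 and Mcm10 by 1.18 in the treated cultures, followed by Fen1 (0.79), Rpa2 (0.74) and Dut (0.63). Mcm7 fell by 1.49 and Tk1 by 1.07. The count in chlorothalonil lay between 15 and 23 called genes when single arrays were left out.

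**Figure D3:**
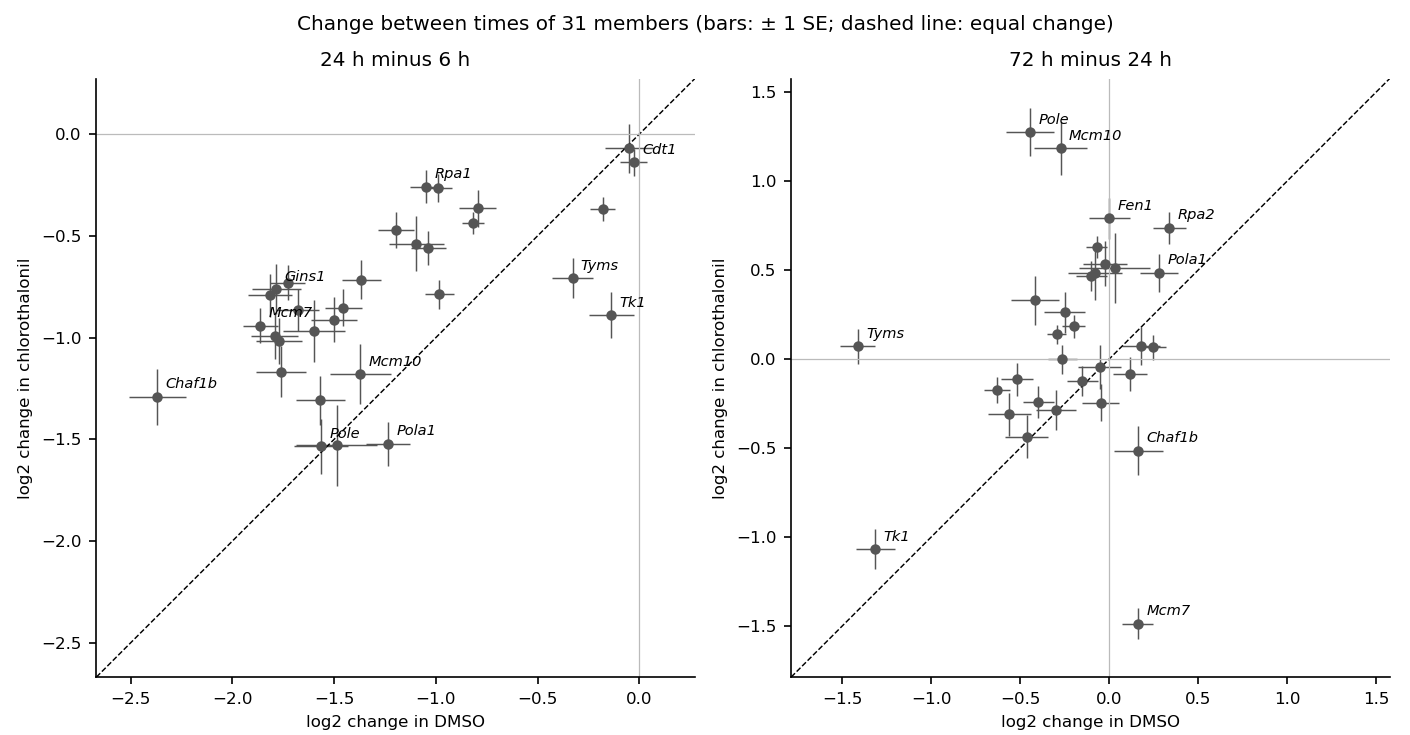
Log2 change of each of the 31 genes between consecutive times in DMSO (horizontal axis) and in chlorothalonil (vertical axis), on the deposited scale, with bars of 1 SE (n = 3 arrays per group) and a dashed line of equal change. From 6 to 24 h most points lie above the line, with Chaf1b at −2.37 in DMSO and −1.29 in chlorothalonil. From 24 to 72 h Pole, Mcm10 and Tyms lie well above the line and Mcm7 and Chaf1b below it. After poly-A scaling with all arrays in the fit, none of the differences from equal change was called from 6 to 24 h, and 4 were from 24 to 72 h. For 24 to 72 h that scaling moves all points upward relative to the line. Some differences from 6 to 24 h were called on that scale when DMSO array 1 of 24 h was left out.

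The other genes of replication were counted from a textbook list. Of 46 such genes, 37 were tested, of which 9 were higher and 10 lower at 6 h, 19 and 6 at 24 h, and 27 and 4 at 72 h. The 6 h counts lie near the shares of all genes, 27.8% higher and 31.8% lower. Those shares were 39.1% and 31.1% at 24 h and 37.2% and 27.0% at 72 h. Their medians were 0.01, 0.42 and 0.55, and −0.61, −0.66 and −0.12 when scaled to the poly-A controls. At 24 h the largest rises were those of Gins4 (1.54), a GINS subunit, and Pole2 (1.30), the second subunit of polymerase epsilon. The largest falls were those of Timeless (−0.70), a fork protection factor, and Recql4 (−0.67), a helicase of initiation, and both of these were higher at 72 h (0.37 and 0.88). Pole2 was higher at 24 h while Pole was lower, and both were higher at 72 h. Of 16 other genes of nucleotide synthesis, 12 were tested. At 6 h 7 were higher and 2 lower (median 0.21). At 24 h 10 were higher and 2 not called (median 0.54), and at 72 h 9 were higher and 3 not called (median 0.32). Scaled to the poly-A controls, the medians were −0.41, −0.54 and −0.35. At 24 h Gart, of purine synthesis, was higher by 1.85 and Gmps, of GMP synthesis, by 1.31.

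Among regulators of entry into S phase, lower calls outnumbered higher ones at 6 and 24 h. The list holds activators as well as inhibitors, so its counts and medians have no single direction for S phase entry. Of 26 on the list 22 were tested, and at 24 h 5 were higher and 11 lower (median −0.29), against 4 and 12 at 6 h (median −0.44) and 8 and 3 at 72 h (median 0.13, or −0.54 scaled to the poly-A controls). Of all genes, 27.8% were higher and 31.8% lower at 6 h. The shares were 39.1% and 31.1% at 24 h and 37.2% and 27.0% at 72 h. E2f1, the factor named for these promoters, was called at none of the times (0.30, −0.34 and 0.22). Ccne1 and Ccne2, the E cyclins, were higher at 24 h by 0.54 and 0.25, and Ccne2 was lower at 6 h by −0.49. Cdkn1a, the inhibitor p21 that binds Pcna and cyclin-dependent kinases, was higher at all 3 times by 0.52, 0.94 and 1.27. Myc was higher at 24 h by 1.48, and Ccnd1 (−0.93) and E2f7 (−1.13), a repressor of the E2F family, were lower. Cdc6 has no probe set with its symbol alone and gives no value.

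Mitosis genes were mostly lower at 6 and 24 h and mostly higher at 72 h on the deposited scale. Of 19 tested, 18 were lower at 6 h (median −0.84), 15 were lower at 24 h (median −0.70) and 18 were higher at 72 h (median 0.68), and scaled to the poly-A controls the medians were −1.46, −1.77 and 0.01. Of all genes, 31.8% were lower at 6 h, 31.1% were lower at 24 h and 37.2% were higher at 72 h. At 24 h Cenpf, a kinetochore protein, was lower by −2.26 and Cenpe, a mitotic motor, by −1.60. Top2a, the topoisomerase of dividing cells, was lower at 6 and 24 h by −1.22 and −1.55 and higher at 72 h by 0.42. Mki67, the proliferation marker Ki-67, was lower at 6 h by −0.84 and at 24 h by −0.23, and differed by −0.04 at 72 h (adjusted p = 0.772). Thus at 24 h the replication genes were mostly higher and the mitosis genes mostly lower in the same arrays, and at 72 h both were mostly higher on the deposited scale. The difference between the lists was not tested.

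**Figure D4:**
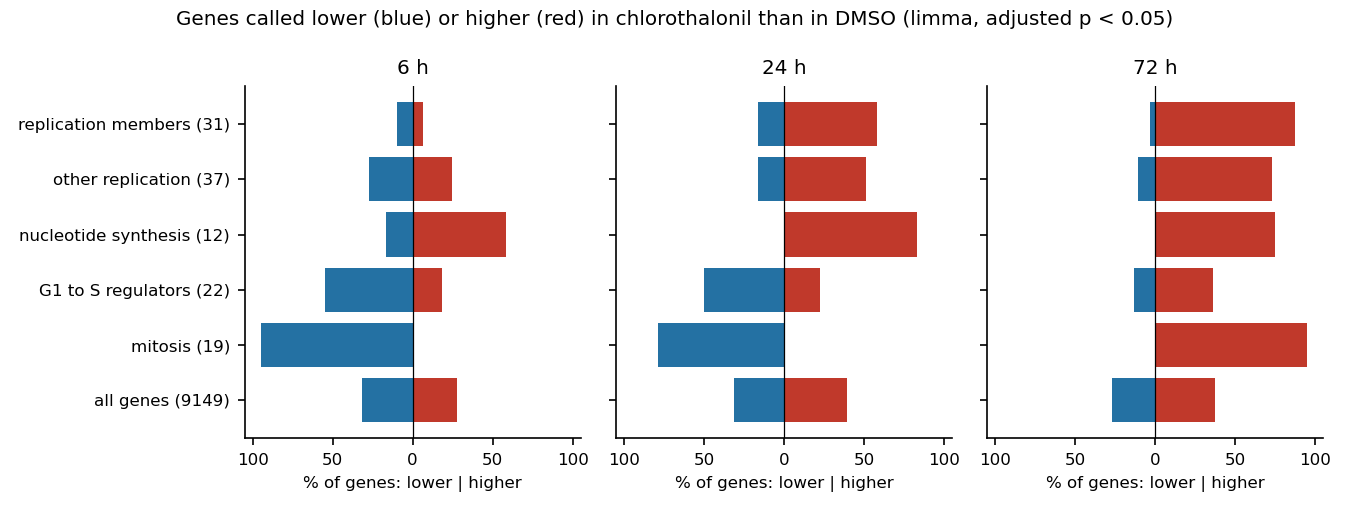
Share of genes called lower (blue, left of 0) and higher (red, right of 0) in chlorothalonil than in DMSO at 6, 24 and 72 h, on the deposited scale, for the replication genes, 4 other lists and all 9149 genes tested, with the number of genes tested in brackets. At 24 h the replication genes have 18 higher of 31 and the mitosis genes 15 lower of 19, and at 72 h they have 27 higher and 18 higher. On the poly-A scale with all arrays in the fit, the replication genes have none higher at 24 and 72 h. A single gene was called higher at 24 h on that scale when DMSO array 1 of 24 h was left out.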

How the data were processed

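RNA from the 18 cultures was hybridised to Affymetrix rat arrays of 31099 probe sets. The authors deposited log2 expression values, and the submitters' processing notes name GCRMA without a version or settings. The number of arrays limits the precision. Probe sets with 1 gene symbol (20832) were kept, symbols were updated by Entrez ID with RefSeq GRCr8, probe sets above log2 4 in at least 3 arrays passed, and the brightest represented its gene. The 6 group means were fitted over all 18 arrays with limma 3.58.1 in R 4.3.3, with Benjamini-Hochberg adjustment over 9149 genes. The script was tested on simulated data. Pairing by replicate number was not used in the main fit, and the values do not settle whether it existed. Correlations of same-numbered arrays' deviations were −0.04 to 0.30, over 0.1 in 3 of 9 pairs. Those of arrays with unlike numbers at the same time were −0.22 to 0.21. Every gene on the list is accounted for, and those with the largest called change per role, or called in opposite directions at different times, are given in every array. From the other lists, genes of largest change at 24 h and set regulators are named. The genes and lists were chosen with earlier results of these data known. Alternatives were the filter, the probe set rule, normalization, poly-A scaling, replicate blocks, array weights, a fold minimum and leaving out each array. Rrm2 was left out because its probe sets carry a second symbol.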

Additional observations from a re-analysis of the deposited data

Results flagged for a closer look

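The treatment change of a gene at one time was set against its change at the time before, as an interaction term in limma with adjusted p under 0.05, and each gene whose effect differed is listed with that difference in log2 units on the deposited scale. From 6 to 24 h the effect rose in 20 genes: Mcm2 (0.65), Mcm3 (0.63), Mcm4 (0.81), Mcm5 (0.75), Mcm6 (1.0), Mcm7 (0.92), Gins1 (1.02), Cdc45 (0.59), Pcna (0.72), Rfc2 (0.56), Rfc3 (0.59), Rfc4 (0.43), Rfc5 (1.02), Prim1 (0.38), Prim2 (0.73), Rpa1 (0.79), Rpa2 (0.60), Fen1 (0.80), Rrm1 (0.48) and Chaf1b (1.08). It fell in 2: Tyms (−0.38) and Tk1 (−0.75). From 24 to 72 h the effect rose in 15 genes: Mcm3 (0.56), Mcm5 (0.51), Mcm10 (1.46), Cdc45 (0.56), Cdt1 (0.38), Rfc2 (0.75), Rfc4 (0.40), Pole (1.72), Prim1 (0.43), Rpa2 (0.40), Fen1 (0.79), Lig1 (0.46), Rrm1 (0.57), Tyms (1.48) and Dut (0.70). It fell in 2: Mcm7 (−1.65) and Chaf1b (−0.68). Scaled to the poly-A controls with all arrays in the fit, none of the first set of differences was called by limma (1 at an unadjusted p under 0.05) and 4 of the second were. The differences of the second set all move upward on that scale, because more is taken off at 24 h than at 72 h.

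The poly-A control probe sets, which the comparisons do not otherwise use, were brighter in treated than in DMSO arrays by 0.62 at 6 h, 1.07 at 24 h and 0.67 at 72 h. Their part in the results above is given by the scaled values and was not tested further.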

How the results depend on the processing

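The counts of genes called at 6, 24 and 72 h were 5, 23 and 28, and those of changed effects 22 (24 against 6 h) and 17 (72 against 24 h). Poly-A scaling changed most: it gave 13, 14 and 2, all lower, 0 and 4 changed effects (1 member of the first at an unadjusted p under 0.05 in limma), and 2 and 7 genes in DMSO and chlorothalonil at 72 against 24 h, where the deposited scale gave 16 and 22. The median change at 24 h became −0.62. The sign turned for 10 genes at 6 h, 21 at 24 h and 11 at 72 h. Those called on at least 1 of the scales were Pold1 at 6 h (−0.11), then at 24 h Mcm2 (−0.58), Mcm3 (−0.69), Mcm4 (−0.45), Mcm5 (−0.56), Mcm6 (−0.21), Mcm7 (−0.13), Cdc45 (−0.51), Pcna (−0.47), Rfc2 (−0.68), Rfc3 (−0.38), Rfc4 (−0.47), Rfc5 (−0.29), Prim1 (−0.70), Prim2 (−0.54), Rpa1 (−0.47), Rpa2 (−0.45), Fen1 (−0.95), Lig1 (−0.95), Rrm1 (−1.03) and Uhrf1 (−0.79), and at 72 h Mcm2 (−0.37), Mcm4 (−0.24), Cdt1 (−0.50), Pcna (−0.25), Lig1 (−0.085), Rrm1 (−0.064), Dut (−0.12), Uhrf1 (−0.36) and Chaf1b (−0.24). Scaling without DMSO array 1 at 24 h, chosen after seeing the data, gave 11 at 24 h (1 higher, 10 lower), and 6 and 4 changed effects. The 6 h count was 10 under quantile normalization, 8 after centring, 9 with only the arrays compared, 11 with array weights and 3 with a 1.5-fold minimum. That minimum gave 12 at 24 h, 8 changed effects at 72 against 24 h, and 3 and 7 in DMSO and chlorothalonil at 72 against 24 h. Dut turned sign under the most variable probe set at 6 h (−1.20) and 72 h (−0.13) and under the mean of probe sets at 6 h (−0.58), as did Mcm10 at 24 h (0.92 and 0.38). Poly-A scaling takes the same amount off all genes of an array, so the spread of the controls between arrays enters every gene. In DMSO at 24 h the controls ranged from 8.97 to 10.28. A call lost on that scale is therefore not always a smaller change. How far each call depended on this spread was not tested, nor was the cause of the shifts under the other settings.

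Leaving out each array gave 4 to 7 calls at 6 h, 21 to 25 at 24 h, 25 to 28 at 72 h, 21 to 23 and 16 to 18 changed effects, 27 to 28 and 13 to 16 in DMSO over time, and 28 to 30 and 15 to 23 in chlorothalonil. With the replicate number as a block within each time the counts were 4, 22 and 26, with 22 and 16 changed effects, and Pold1 at 6 h, Dut at 24 h and Cdt1 and Uhrf1 at 72 h were not called; as a block over all times they were 5, 23 and 27, with 22 and 17. Whether the numbers pair the arrays was not settled.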
